A study of Mus musculus with 6 samples.

Results

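The genes described here encode 7 secreted proteins of nasal glands and mucus: Lcn3, Lcn11, Vmo1, Plunc, Muc2, Reg3g and Ltf. They were picked by name out of 8078 genes in the deposited table after their values in all 6 libraries had been seen, so their differences between groups are given as descriptions with no test. The libraries were made from TdTomato-positive cells sorted from olfactory epithelium of 12-week-old mice. Both groups were on a B6 background and carried KRT5-CreER, a tamoxifen-inducible Cre recombinase, together with the Ai9 fl(Stop)TdTomato reporter, and both received tamoxifen 2 weeks before the sort. The 3 uninjured libraries came from mice with no lesion. The 3 injured libraries came from mice exposed to methyl bromide gas at 180 ppm for 8 h and taken 18 h later. Methyl bromide destroys most of the olfactory epithelium but spares many of the horizontal basal cells, its reserve stem cells. The Cre is driven by the keratin 5 promoter, so any cell that uses that promoter at the time of tamoxifen, and its descendants, can carry the label. Each library pooled cells of several animals.

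The air-facing surface of the nose is covered by mucus that is made by Bowman's glands and other nasal glands, by sustentacular cells and by secretory cells of the neighbouring respiratory epithelium. Lipocalins are small secreted proteins that carry hydrophobic ligands, and several of them are made by nasal and vomeronasal glands. Proteins with a BPI fold bind lipids and bacterial surfaces, mucins form the gel itself, and lectins, iron-binding proteins and small peptides limit microbes. Horizontal basal cells lie beneath the sustentacular cells, on the basement membrane.

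Values are in FPKM, fragments scaled to transcript length and to library size, and a library is the replicate. Summed FPKM ranged from 164265 to 231755 per library, and read depth was unknown. Of 12 markers of horizontal basal cells fixed in a list, 8 had an entry of their own, among them Trp63, the transcription factor that holds these cells dormant, at 179 ± 19.9 FPKM (SD, n = 3) in uninjured and 117 ± 20.9 (SD, n = 3) in injured libraries. Trp63 (limma adjusted p = 0.486) was the only one of the 8 that lay wholly lower after injury, where 6.75% of all genes tested did. Of the 8 differences 4 were above and 4 below 0, with a median of 0.15, and the surface adhesion gene Itga6 was at 14.9 ± 1.36 and 30.6 ± 18.4 FPKM (SD, n = 3 each). Krt5 was not analysed here, and Krt14 stood in an entry joined with other keratins. Injured replicate 2 stood apart from the other injured libraries, with Pearson correlations of log2 values across genes of 0.734 and 0.754 to them, against 0.849 between injured replicates 1 and 3. The X-inactivation RNA Xist was at 29.4 ± 3.82 FPKM (SD, n = 3) in uninjured and 0.324 ± 0.249 (SD, n = 3) in injured libraries and was the only gene past an adjusted p of 0.05 (limma, adjusted p = 0.000223). The Y-linked gene Ddx3y was at 6.67, 1.21 and 1.55 FPKM in uninjured replicates 1 to 3 and at 7.74, 8.90 and 11.6 in the injured libraries. Sex of the pooled animals and injury can therefore not be told apart in any value below. In sorted bulk samples, fewer cells of a type and less RNA per cell cannot be told apart either.

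The promoters of 5 of the 7 genes are shown because these genes either had the most negative differences of the 7 (Lcn3, Lcn11, Vmo1), were the most abundant (Plunc), or stood higher in some injured libraries (Reg3g). Ltf also stood higher in some injured libraries, but its window and that of Muc2 are not printed. All 7 matched an entry of RefSeq's promoter windows, Plunc under its current symbol Bpifa1. Each window runs 5′ to 3′ along the gene's strand from 250 bases before to 50 after the start site in build GRCm38.p6, which differs from the build mm9 named for the deposited values. The windows are chr2:25765283-25765582 (plus strand) for Lcn3, chr2:25776767-25777066 (plus strand) for Lcn11, chr11:70514567-70514866 (minus strand) for Vmo1, chr2:154142630-154142929 (plus strand) for Plunc and chr6:78468825-78469124 (minus strand) for Reg3g. Capitals mark TATAAA, the core of the TATA box, on the gene's strand.
Lcn3: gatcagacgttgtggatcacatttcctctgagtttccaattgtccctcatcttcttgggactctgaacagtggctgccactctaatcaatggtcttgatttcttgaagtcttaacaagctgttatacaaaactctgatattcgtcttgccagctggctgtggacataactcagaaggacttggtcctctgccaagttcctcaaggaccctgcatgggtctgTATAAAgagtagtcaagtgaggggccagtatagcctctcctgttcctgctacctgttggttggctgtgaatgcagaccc
Lcn11: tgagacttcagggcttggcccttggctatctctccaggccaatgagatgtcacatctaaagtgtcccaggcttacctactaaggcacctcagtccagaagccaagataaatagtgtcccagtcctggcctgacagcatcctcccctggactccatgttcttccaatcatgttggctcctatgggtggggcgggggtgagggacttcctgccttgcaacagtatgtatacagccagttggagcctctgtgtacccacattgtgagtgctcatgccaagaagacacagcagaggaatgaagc
Vmo1: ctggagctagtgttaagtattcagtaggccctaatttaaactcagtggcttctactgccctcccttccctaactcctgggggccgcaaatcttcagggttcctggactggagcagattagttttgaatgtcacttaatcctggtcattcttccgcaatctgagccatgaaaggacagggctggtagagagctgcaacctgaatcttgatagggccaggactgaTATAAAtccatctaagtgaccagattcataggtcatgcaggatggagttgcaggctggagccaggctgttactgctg
Plunc: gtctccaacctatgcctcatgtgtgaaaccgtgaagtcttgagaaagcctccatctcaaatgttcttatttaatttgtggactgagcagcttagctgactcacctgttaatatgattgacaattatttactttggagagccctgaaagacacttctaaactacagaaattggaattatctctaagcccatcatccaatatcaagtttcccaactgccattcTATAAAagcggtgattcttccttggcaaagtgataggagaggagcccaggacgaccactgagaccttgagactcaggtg
Reg3g: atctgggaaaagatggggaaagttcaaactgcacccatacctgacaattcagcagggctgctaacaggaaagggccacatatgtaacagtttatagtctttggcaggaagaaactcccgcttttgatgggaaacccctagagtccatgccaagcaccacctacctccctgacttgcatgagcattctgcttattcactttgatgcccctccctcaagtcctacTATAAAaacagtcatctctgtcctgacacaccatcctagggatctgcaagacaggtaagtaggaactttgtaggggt
In Lcn3 and Plunc the motif began 29 bases before the start site, and in Vmo1 and Reg3g 27 bases before it. Thus 4 of the 7 windows held TATAAA on the gene's strand beginning 40 to 20 bases before the start, where 1.99% of all 32851 promoter windows of the same length did. Over the whole window and both strands, 5 of 7 held TATAAA against 13.6% of all windows, the fifth being Muc2. A further 2 motifs were searched on both strands, counted whether or not they overlap the TATA motif. The motif TGANTCA, which is the AP-1 site where N is C or G, was in 2 of 7 windows against 7.81% of all. It read TGACTCA in Plunc and TGAATCA in Muc2, so only the Plunc match is an AP-1 site. The STAT site, TTCNNNGAA, was in 0 of 7 against 8.30%. The 7 windows held 1 to 6 CG dinucleotides, where the median of all windows was 7. A match describes these letters only.

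The injured libraries all lay below the uninjured ones for 5 of the 7 genes, the lipocalins Lcn3 and Lcn11, Vmo1, Plunc and Muc2, and for 0 of 7 did they all lie above. Tests covered the 7987 genes whose mean reached 1 FPKM, all 7 included, and over these the same was true of 6.75% for lower and 12.0% for higher, 18.7% in all. Since the genes were chosen with these values in view, nothing is read from the difference between those shares. All 5 also lay below without overlap when libraries were scaled to a common upper quartile or quantile-normalized. The median log2 difference of all genes tested was 0.16 in the deposited values, 0.0087 with quantile normalization and -0.0080 with upper-quartile scaling. The entry Mir703 took 22.0% to 25.4% of summed FPKM in uninjured libraries and 8.01% to 18.6% in injured ones. Differences below are injured minus uninjured in log2(FPKM + 1), and the added 1 shrinks them for low genes. They were -4.79 for Lcn3, -3.65 for Lcn11, -3.08 for Vmo1, -1.19 for Muc2, -1.14 for Plunc, 0.43 for Reg3g and 0.79 for Ltf.

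**Figure D1:**
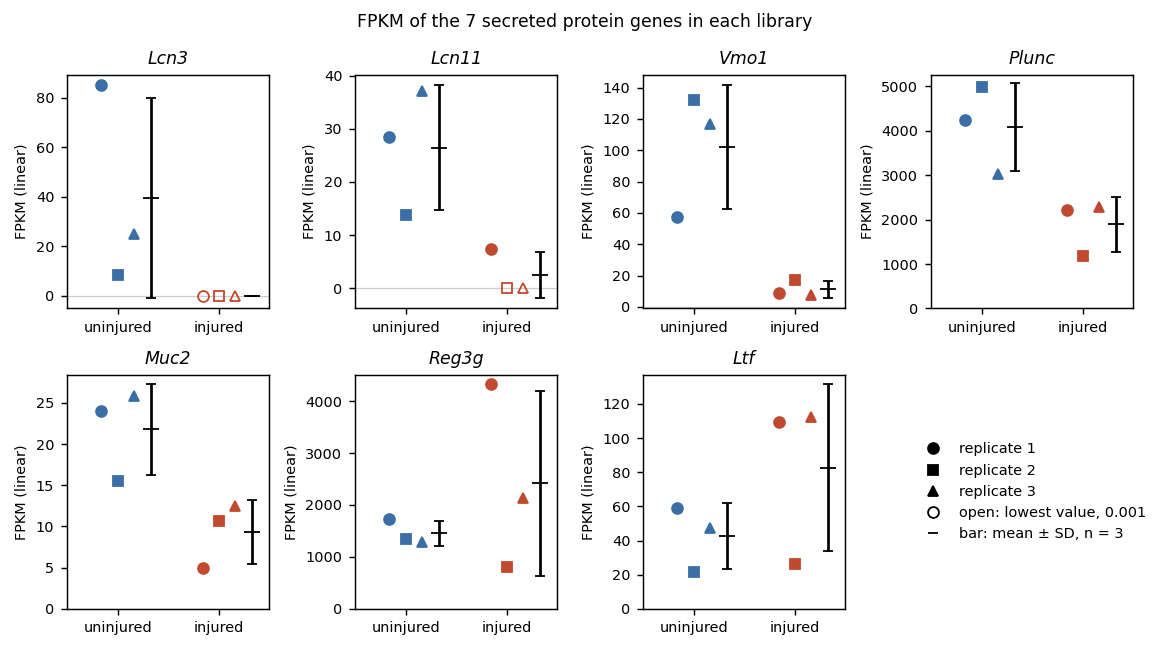
FPKM (linear axis) of each of the 7 genes in the 3 uninjured (blue) and 3 injured (red) libraries, with marker shapes for replicates, open markers for the table's lowest value of 0.001 and bars for mean ± SD. The injured points lie below every uninjured point for Lcn3, Lcn11, Vmo1, Plunc and Muc2, whereas for Reg3g and Ltf injured replicates 1 and 3 lie above the uninjured points and injured replicate 2 does not.

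Lcn3, a lipocalin also known as vomeronasal secretory protein 1, was at 85.2, 8.36 and 25.2 FPKM in uninjured replicates 1 to 3. In each of the 3 injured libraries it was listed at 0.001, the table's lowest value, so no fold is given. Its log2 difference was the lowest of all 7987 genes tested. The uninjured libraries themselves differed 10.2-fold between the highest and the lowest, the widest spread among the 7 genes, and the uninjured SD was 102% of the mean. Nothing in the sources used here says whether 0.001 stands for no reads or for a failed estimate.

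Lcn11, the lipocalin gene next to Lcn3, was at 28.4, 13.8 and 37.1 FPKM without injury. After injury it was at 7.41 in replicate 1 and listed at 0.001 in replicates 2 and 3. Its uninjured libraries spanned 2.68-fold, and the highest injured value lay below the lowest uninjured one. In RefSeq's order of genes on mouse chromosome 2 there were 0 genes between Lcn3 and Lcn11. Both were lowest in replicate 2 among the uninjured libraries, but Lcn3 was highest in replicate 1 and Lcn11 in replicate 3.

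Vmo1 encodes the mouse homolog of an outer layer protein of the egg's vitelline membrane. Its level was 57.3, 132 and 116 FPKM without injury and 8.81, 17.4 and 7.41 after it. The group means were 102 ± 39.5 and 11.2 ± 5.40 FPKM (SD, n = 3 each), a 9.11-fold lower level after injury. The gap between the groups, from 17.4 to 57.3 FPKM, was wider than the range of the injured libraries. Unlike Lcn3 and Lcn11, Vmo1 was lowest in replicate 1 among the uninjured libraries, and it had measured values above 0.001 in all 6.

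Plunc encodes BPIFA1, also called SPLUNC1, an abundant airway protein that lowers surface tension and binds bacteria. The uninjured libraries held 4245, 4978 and 3023 FPKM of it, the injured ones 2217, 1182 and 2289.8. In each of the 3 uninjured libraries it ranked 2 among all 8078 genes, below only Mir703, and it took 1.40% to 2.39% of summed FPKM. After injury it ranked 5, 3 and 3 and took 0.719% to 1.09%. The means were 4082 ± 988 and 1896 ± 620 FPKM (SD, n = 3 each), 2.15-fold lower after injury. It therefore stayed among the most abundant entries of the table in libraries labelled as horizontal basal cells, at a lower level in each injured library than in any uninjured one.

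Muc2, a gel-forming mucin best known from the intestine, was at 24.0, 15.5 and 25.8 FPKM in uninjured and at 4.91, 10.6 and 12.5 in injured libraries. The means were 21.8 ± 5.50 and 9.33 ± 3.93 FPKM (SD, n = 3 each), 2.34-fold lower after injury. The groups came closest between injured replicate 3 and uninjured replicate 2. Injured replicate 1, which held the highest values for Lcn11 and Reg3g after injury, had the lowest for Muc2.

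Reg3g encodes a C-type lectin that kills Gram-positive bacteria. It was at 1725, 1335 and 1294 FPKM in uninjured libraries, the tightest of the 7 genes with an SD of 16.4% of the mean. After injury it was at 4322, 799 and 2125 FPKM in replicates 1 to 3. Injured replicates 1 and 3 lay above every uninjured library, and injured replicate 2 lay below every one. The mean of injured replicates 1 and 3 was 2.22-fold the uninjured mean, and injured replicate 2 was at 0.551 of it. Over all 3 the means were 1451 ± 238 and 2416 ± 1779 FPKM (SD, n = 3 each), so the difference was smaller than the spread among injured libraries. Without injured replicate 1 the log2 difference was -0.14, and without injured replicate 2 it was 1.07.

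Ltf encodes lactotransferrin, an iron-binding protein of gland secretions that is also stored in granules of neutrophils. It was at 59.1, 21.4 and 47.3 FPKM in uninjured and at 109, 26.1 and 112 in injured libraries. As with Reg3g, injured replicates 1 and 3 lay above every uninjured library, whereas injured replicate 2 lay within the uninjured range. The means were 42.6 ± 19.3 and 82.6 ± 49.0 FPKM (SD, n = 3 each), 1.94-fold higher after injury, with a difference smaller than the SD of the injured libraries. Without injured replicate 2 the injured mean was 2.60-fold the uninjured mean.

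**Figure D2:**
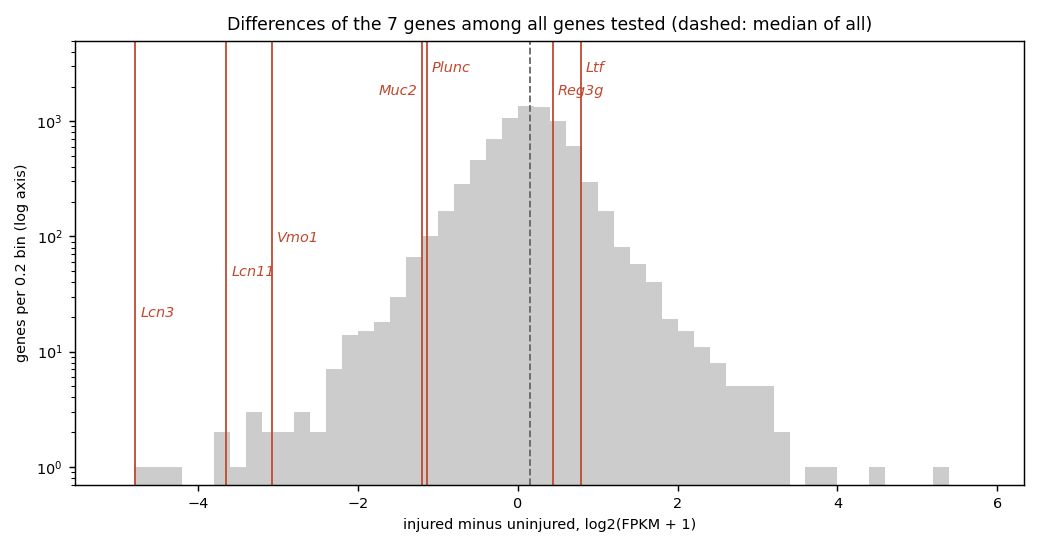
Histogram of injured minus uninjured differences on the log2(FPKM + 1) scale for all 7987 genes tested (grey, number of genes on a log axis), with red lines at the 7 genes and a dashed line at the median of all genes, 0.16. Lcn3 sits at the lower end at -4.79, Lcn11 and Vmo1 in the lower tail, Muc2 and Plunc at -1.19 and -1.14, and Reg3g and Ltf to the right of the median.

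Summed over the 7 genes, the level was 6224, 6505 and 4568 FPKM in uninjured replicates 1 to 3 and 6669, 2035 and 4548 in injured replicates 1 to 3. The sum was thus lower in injured replicate 2 than in every other library, while injured replicate 1 held the highest. In the deposited values the make-up of the sum also differed between groups. Plunc made up 68.2%, 76.5% and 66.2% of it in uninjured libraries and 33.2%, 58.1% and 50.4% in injured ones. The ratio of Reg3g to Plunc was 0.406, 0.268 and 0.428 without injury and 1.95, 0.676 and 0.928 after it, so in the deposited values the injured libraries all lay above the uninjured ones, injured replicate 2 included. Scaling a library by a constant leaves this ratio as it is, but quantile normalization does not: the ratio was then 0.534 in uninjured replicate 1 and 0.410 in injured replicate 2, so the groups overlapped. It was formed from the values that chose the genes and is a description.

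Other secreted protein genes were taken from 4 lists chosen with earlier results of these data known: lipocalins, BPI fold proteins, mucins with mucus granule proteins, and antimicrobial or barrier proteins. Of 128 symbols, 31 had an entry of their own and 30 were tested. By limma 0 of the 30 were higher and 0 lower at an adjusted p of 0.05, where 0.0125% of all genes tested were called. At an unadjusted p of 0.05 there were 10 of 30, against 11.2% of all genes tested. The injured libraries lay wholly below the uninjured ones for 8 of the 30 and wholly above for 1, against 6.75% and 12.0% of all genes tested. After upper-quartile scaling or quantile normalization the lower count was 9, and with Mir703 left out and the libraries rescaled it was 10.

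The injured libraries lay wholly below the uninjured ones for 3 of the 4 BPI fold genes tested, against 6.75% of all genes tested. All 4 differences were below 0, and the list median was -2.41 against 0.16 for all genes. Rya3 (Bpifb3) was at 176, 820.2 and 395 FPKM in uninjured and at 93.1, 44.6 and 45.1 in injured libraries, a 7.62-fold lower mean (limma adjusted p = 0.174). Gm1006 (Bpifb4) was at 85.4, 159 and 220.1 FPKM without injury and at 58.7, 18.6 and 29.4 after it (limma adjusted p = 0.181). Bpil3 (Bpifb6) was at 69.1, 164 and 219 FPKM without injury and at 47.5, 11.9 and 14.6 after it (limma adjusted p = 0.187). None of the 3 passed the threshold, and for each the 2 groups did not overlap. RefSeq places these 3 genes next to each other on chromosome 2 with 0 genes between them, and 3 protein-coding genes lie between Gm1006 and Plunc. All 3 were lowest in replicate 1 among the uninjured libraries and highest in replicate 1 among the injured ones, an order that Plunc did not share. The remaining tested gene, named after its values were seen, was Lbp, the lipopolysaccharide-binding protein, at 43.0 ± 9.05 and 42.6 ± 22.2 FPKM (SD, n = 3 each).

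Among the 3 other lipocalins tested, with a list median of -2.57, Lcn4 (vomeronasal secretory protein 2) was at 40.5, 5.44 and 2.91 FPKM without injury. After injury it was listed at 0.001 in replicates 1 and 3 and was at 0.135 in replicate 2 (limma adjusted p = 0.198). Like Lcn3 it was highest in uninjured replicate 1. Ptgds, which encodes a prostaglandin D synthase that is itself a lipocalin, was at 19.3, 45.3 and 73.2 FPKM without injury and at 19.7, 2.08 and 4.27 after it, with an overlap through injured replicate 1 (limma adjusted p = 0.369). Apod, which encodes a lipid-carrying apolipoprotein of this family, was at 12.3 ± 5.79 and 15.1 ± 11.9 FPKM (SD, n = 3 each).

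The 8 other mucin and mucus granule genes tested had a median of -0.17, with 4 differences above and 4 below 0. Agr2, a protein disulfide isomerase needed to fold mucins, was at 101, 105 and 93.3 FPKM in uninjured and at 242, 58.1 and 117 in injured libraries, so it lay above the uninjured range in replicates 1 and 3 and below it in replicate 2. Muc1, a membrane mucin, showed the same order at 20.5, 19.5 and 17.3 FPKM without injury and 52.8, 14.8 and 34.3 after it. Tff2, a trefoil peptide of mucus, was at 25.3, 32.1 and 17.8 FPKM without injury and at 28.8, 4.58 and 6.60 after it. The adjusted p of these 3 genes by limma were 0.862, 0.577 and 0.492.

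The 15 antimicrobial and barrier genes tested had a median of 0.16, the same as all genes, with -0.03 when libraries were scaled to a common upper quartile and 0.73 without injured replicate 2. The most abundant, Wfdc2, a whey acidic protein of airway secretions, was at 225, 295 and 251 FPKM without injury and at 393, 127 and 466 after it (limma adjusted p = 0.920). Its injured replicates 1 and 3 lay above and replicate 2 below every uninjured library, the order seen for Reg3g. Cst3, the protease inhibitor cystatin C, was at 96.0 ± 19.7 and 81.2 ± 15.4 FPKM (SD, n = 3 each). Defb1, which encodes a beta-defensin, was at 49.4, 39.6 and 49.9 FPKM without injury and at 35.6, 23.1 and 23.6 after it, without overlap (limma adjusted p = 0.376).

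**Figure D3:**
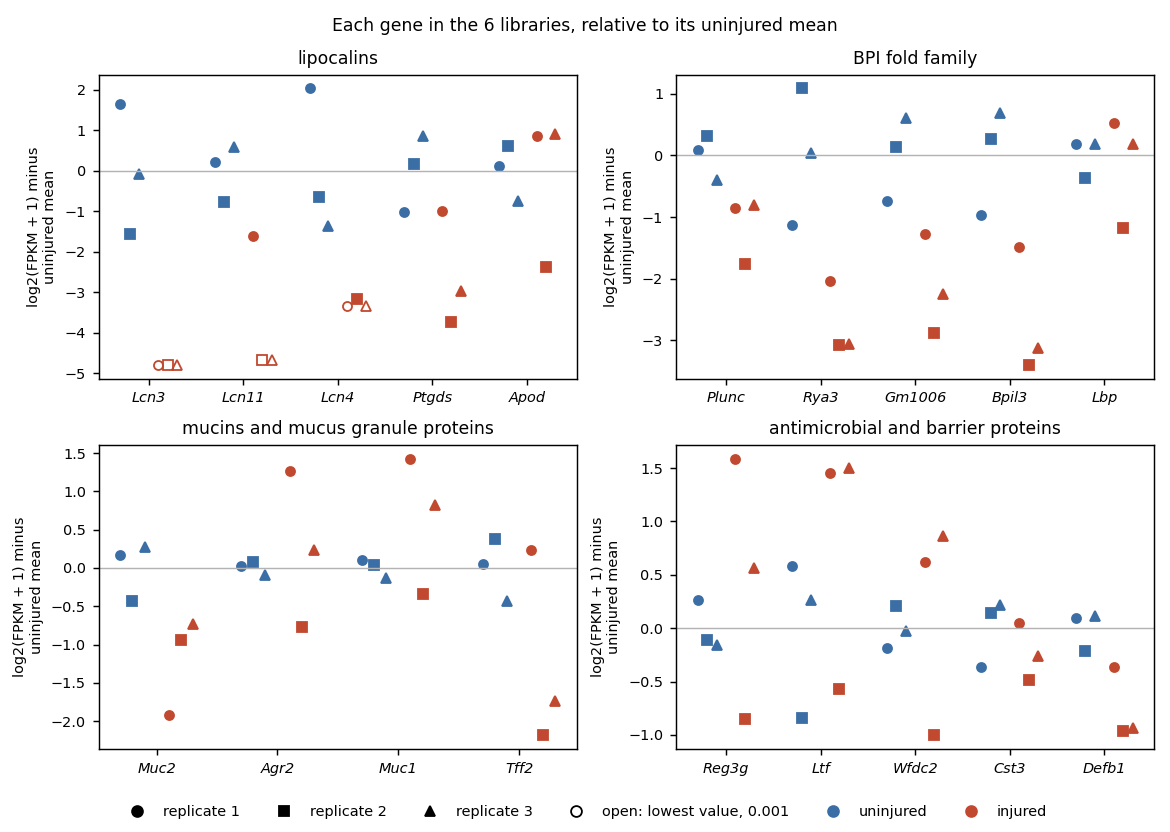
log2(FPKM + 1) of each gene in each library minus the gene's mean over the 3 uninjured libraries, for the 7 genes and the related genes named beside them (blue uninjured, red injured, shapes for replicates, open markers for the lowest value of 0.001). In the BPI fold panel the injured points of Plunc, Rya3, Gm1006 and Bpil3 lie below every uninjured point of the same gene. Injured replicate 2 lies below injured replicates 1 and 3 for every gene of that panel and for every gene of the lower panels except Muc2.

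Markers of cells that the sort could also hold moved with some of these genes, and their part in the differences was not tested. Of 11 gland markers 3 had an entry, with a summed level of 398 to 1069 FPKM in uninjured and 111 to 378 in injured libraries. Most of it was Gpx6, a glutathione peroxidase of olfactory glands, at 375, 1046 and 996 FPKM without injury and at 359.8, 103 and 78.9 after it (limma adjusted p = 0.267). Gpx6 was thus lowest in replicate 1 among uninjured and highest in replicate 1 among injured libraries, as were Rya3, Gm1006, Bpil3 and Ptgds. The neutrophil markers S100a8 and S100a9 had this order too. The other gland markers did not follow Gpx6, with Sox9 at 13.2 ± 0.0763 and 14.5 ± 8.82 and Elf5 at 10.6 ± 1.81 and 10.5 ± 5.25 FPKM (SD, n = 3 each). Markers of mature olfactory neurons, 8 of 11 with an entry, summed to 446.1 to 762 FPKM in uninjured and 133 to 445.8 in injured libraries, with the highest injured sum in replicate 2. Their median difference of -1.25 was the lowest of the marker lists, with 7 differences below 0 and 1 above. Of these 8 neuron markers, 4 lay wholly lower after injury, against 6.75% of all genes tested.

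Sustentacular markers (6 of 12 with an entry) summed to 309 to 381 FPKM without injury and 229.8 to 668 after it. The overlap came from Krt18, a keratin of simple epithelia and the only one of the 6 with a positive difference. Without it, an omission chosen after the values were seen, the sums were 176 to 221 FPKM without injury and 110 to 131 after it. Of the 6 genes, 2 lay wholly lower, Cyp1a2 and Hes1 (limma adjusted p = 0.181 and 0.425), against 6.75% of all genes tested. Club and goblet cell markers (5 of 12) summed to 138 to 165 FPKM without injury and 71.6 to 286 after it. Ciliated cell markers (8 of 12) summed to 48.2 to 86.8 and 33.5 to 56.7 FPKM. For neutrophils, which store lactotransferrin, 4 of 14 markers had an entry, and their sum was 14.2, 39.3 and 30.9 FPKM in uninjured and 104, 24.3 and 46.5 in injured libraries. As for Ltf, the sums of injured replicates 1 and 3 lay above every uninjured library and that of injured replicate 2 within the uninjured range. Among the uninjured libraries Ltf was highest in replicate 1, where the neutrophil sum was lowest. The horizontal basal cell markers Cdh1, Itga6, Itgb4 and Icam1 also lay above every uninjured library in injured replicates 1 and 3. They lay below every one in injured replicate 2. Cdh1 was at 57.4, 54.5 and 52.6 FPKM without injury and at 96.2, 35.5 and 125 after it. Trp63, Egfr, Perp and Dst did not show this order, which was thus not confined to secreted protein or neutrophil genes. Macrophage and leukocyte markers (5 of 12) summed to 83.7 to 185 FPKM without injury and 55.1 to 83.1 after it, without overlap. Most of that sum was Cd74, the invariant chain of antigen presentation, at 68.0, 76.9 and 162 FPKM without injury and at 40.5, 39.8 and 54.7 after it. Without Cd74, also left out after the values were seen, the sums overlapped, at 15.7 to 27.2 FPKM without injury and 15.3 to 42.6 after it, and 3 of the 5 members had positive differences, with a list median of 0.06. None of these marker genes was past an adjusted p of 0.05 by limma, and no marker with an entry stood at 0.001 in all 6 libraries.

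**Figure D4:**
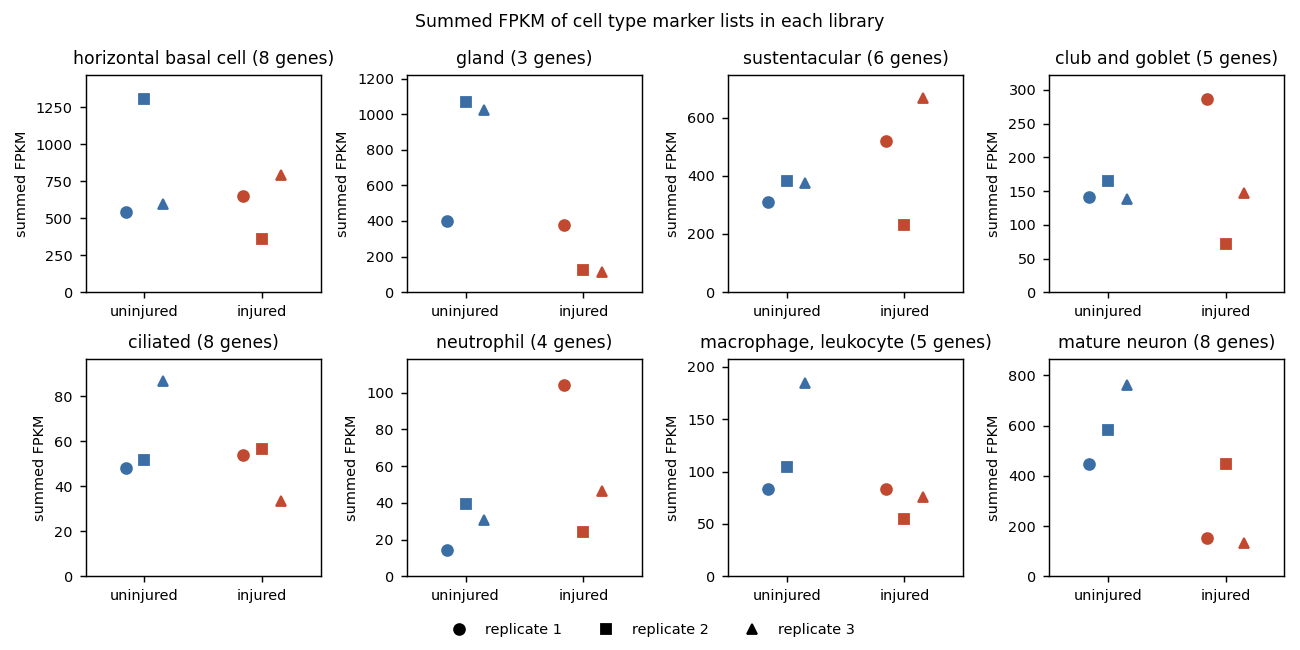
Summed FPKM (linear axis from 0) of 8 lists of cell type markers in the 3 uninjured (blue) and 3 injured (red) libraries, with the number of genes that had an entry in each title and shapes for replicates. The gland sum is 398 to 1069 in uninjured and 111 to 378 in injured libraries, and the horizontal basal cell, sustentacular, club, ciliated and neutrophil sums overlap between groups.

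For the 5 genes with values above 0.001 in every library, the genes of most similar profile were found by the root mean square difference of centred log2(FPKM + 1) values over the 6 libraries, among all genes tested. For Vmo1, whose own SD on that scale was 1.78, these were Psph at 0.46, Cyp1a2, which is also on the sustentacular list, at 0.54 and Dcn at 0.56. For Plunc (SD 0.75) they were Irf2bp2 at 0.16, Eno4 at 0.21 and Il6ra at 0.23, and for Muc2 (SD 0.80) Pygm at 0.13, Tceal1 at 0.21 and Gpm6a at 0.22. Reg3g (SD 0.82) was nearest to Ciita, Cpne2 and Mnat1, at 0.20, 0.20 and 0.21, and Ltf (SD 0.99) to Tslp, Myd88 and Tgm4, at 0.25, 0.29 and 0.29. Some of these nearest genes were themselves listed at 0.001, so their distances rest partly on that value. Psph was so in every injured library, Eno4 and Ciita in injured replicate 2 and Pygm in injured replicate 1. Tgm4 was so in uninjured replicate 2 and injured replicate 2. Dcn, which encodes the matrix proteoglycan decorin, was at 116, 162 and 145 FPKM without injury and at 27.5, 62.5 and 15.3 after it, so that like Vmo1 it was highest in replicate 2 within both groups. Mnat1, a subunit of the CDK-activating kinase, was at 30.7, 17.8 and 15.3 FPKM without injury and at 61.2, 8.22 and 29.1 after it, and like Reg3g it was lowest in injured replicate 2. With only 6 libraries and 7987 genes, near profiles are found for any gene, and these are descriptions.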

How the data were processed

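PolyA RNA of sorted TdTomato-positive cells was made into Nextera XT libraries, 3 uninjured and 3 injured, per the labels' protocols. A single table of all 6 libraries was deposited. The submitters' processing notes name FastQC, TopHat and Cuffdiff, and mm9 as the build. The unit is not named in the table. The deposited values are taken to be FPKM made by the authors with Cuffdiff, from those notes and from the Cuffdiff heading of the gene column, per the file headers. For versions, annotation, scaling between libraries and the choice of the 8078 genes: not given in the sources used here. Entries that join several symbols (131) are not read as single genes. Depth is unknown: no whole-read steps were found, since at most 2.96% of ratios between libraries of genes below 2 FPKM lay within 1% of each other, so no counting intervals are given. Without depth, precision rests on the spread between libraries.

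All genes reaching a mean of 1 FPKM were tested by limma (3.58.1, R 4.3.3). The test ran on log2(FPKM + 1) with trend and robust variances, no covariate and Benjamini-Hochberg adjustment at 0.05 over all 7987. The code was tested on simulated data. P-values set the difference between groups against the spread between these pooled libraries, not between animals. The 7 genes, the 12 lists with 207 symbols and the naming rule were chosen with earlier results of these data known. The rule named the 7 genes, the 3 most similar profiles for each with no value of 0.001, and, in each list with no call, the 3 most abundant genes. Of those, the marker lists' genes are given by their sums except where a gene is named. Alternatives were a block on the replicate number, each library left out in turn, a pseudocount of 0.1, no filter, quantile and upper-quartile scaling and limma without trend and robust steps. Leaving out Mir703 was added after seeing the data. Promoter windows came from RefSeq (GRCm38.p6), matched by symbol, and no position was used with the deposited values. Python 3.11.15 with matplotlib 3.10.9 drew the figures.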

Additional observations from a re-analysis of the deposited data

How the results depend on the processing

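The 7 genes kept the sign of their difference under all 11 alternatives, except that Reg3g was at -0.14 without injured replicate 1. The replicate block cannot change these differences. For Lcn3, Lcn11, Vmo1, Plunc and Muc2, whose groups did not overlap, leaving out 1 library or changing the pseudocount cannot change the sign either. In those settings nothing is read from the kept sign. A pseudocount of 0.1 moved Lcn3 to -8.03 and Lcn11 to -5.85, since it weights the value of 0.001 more. Over all genes 0 were higher and 1 lower. There were 2 lower with a pseudocount of 0.1, 4 with quantile normalization and 3 with upper-quartile scaling, and 3 higher and 3 lower without trend and robust steps. Without uninjured replicate 1, 2 or 3 there were 1, 1 and 0 higher and 2, 2 and 2 lower. Without injured replicate 1, 2 or 3 there were 1, 278 and 0 higher and 4, 92 and 1 lower. With a replicate block 134 were higher and 87 lower. Correlations of the libraries' deviations showed no pairing by replicate number, but with 3 libraries per group they cannot exclude one. Same-numbered libraries had correlations of -0.0892, 0.0677 and -0.0776, and uninjured replicate 1 correlated best with injured replicate 3. Among the 30 related genes the block called 1 higher (Chi3l1) and 5 lower (Bpil3, Gm1006, Rya3, Lcn4 and Tff2). Leaving out 1 library called 0 to 2 higher, Chi3l1 and Slpi without injured replicate 2, and 0 lower. Without Mir703 the counts of called genes did not change. The cause of these changes in counts was not tested. Since depth is unknown, the number of reads behind low values is too.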
